A study of Mus musculus with 24 samples.

Results

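The genes of mitosis and chromosome segregation were described across small intestine and colon of mice that had lost the tumour suppressor gene Apc. The group was set by a list of 47 gene symbols. Probe sets annotated to a listed symbol and no other were taken from the deposited values of Affymetrix MOE430_2 arrays. Of the 47 genes, 46 were measured, by 101 of 35066 probe sets, and these values cover 15427 genes in all. The other, Ccnb1, was not analysed here.

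Apc is a negative regulator of Wnt signalling, and the study followed what its loss does to the intestine. RNA was hybridised to 24 arrays in 8 groups of 3. All 18 small intestinal samples came from mice carrying the AhCre transgene, a Cre recombinase driven by the Cyp1a1 promoter, which beta-naphthoflavone switches on. Mice homozygous for LoxP-flanked Apc (Apcfl/fl) and control mice with wild-type Apc were all given 3 injections of beta-naphthoflavone at 80 mg/kg within 1 day, and tissue was taken at day 3, 4 or 5. The wild-type mice thus carried the same Cre and received the same inducer. The 6 colonic samples came from ApcMin mice, which carry a germline truncating Apc mutation and develop adenomas. Each polyp sample pooled polyps of the colon of 1 mouse, and normal colonic mucosa came from mice of the same genotype. The study's methods call the colonic tissues paired, but the labels name different animals for polyps and normal colon and give no pairs, so they were compared unpaired. The labels call 5 of the colonic samples untreated and leave polyp replicate 1 unstated. Every array has an animal name of its own in the labels, apart from the day 4 Apcfl/fl arrays, which are only numbered. Age and sex are not given in the sources used here.

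Cells enter mitosis when cyclin B and its kinase Cdk1 become active. Condensins then compact the chromosomes, kinetochores built on centromeric chromatin attach them to spindle microtubules, and the spindle checkpoint holds back the anaphase-promoting complex until every chromosome is attached. Many of these genes are transcribed late in the cell cycle, when complexes that contain MuvB bind a promoter element called the cell cycle genes homology region (CHR), often together with CCAAT boxes bound by NF-Y, whereas genes of DNA replication (S phase) are transcribed earlier, under E2F factors. In the intestine, dividing cells lie in the crypts, and cells that leave them stop dividing and differentiate.

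Promoter windows of the members were read first, so that their control regions can be compared. Whether a motif went with a change in signal was not tested. The RefSeq windows of GRCm38.p6 run from 250 bases before to 50 bases after each annotated start, and 38 of the 47 members have at least 1 window (43 windows in all). Windows were searched on both strands for CHR (TTTGAA or TTCGAA), for CCAAT, and for E2F sites (TTTGGCGC, TTTCCCGC, TTTGCCGC or TTTCGCGC). A CHR match stood in 33 of 43 member windows (76.7%), against 19.2% of all 32851 windows. CCAAT was found in 83.7% of the members' windows and 37.4% of all windows, and both motifs together in 69.8% and 7.5%. E2F letters stood in 3 of the members' 43 windows (7.0%), against 2.3% of all windows. The windows of 5 members that rose are shown so that the spacing can be seen, each 300 bases long and 5′ to 3′ along the gene's own strand, with matches of these motifs in capitals.
Ccnb2, chr9:70421505-70421804 on the minus strand: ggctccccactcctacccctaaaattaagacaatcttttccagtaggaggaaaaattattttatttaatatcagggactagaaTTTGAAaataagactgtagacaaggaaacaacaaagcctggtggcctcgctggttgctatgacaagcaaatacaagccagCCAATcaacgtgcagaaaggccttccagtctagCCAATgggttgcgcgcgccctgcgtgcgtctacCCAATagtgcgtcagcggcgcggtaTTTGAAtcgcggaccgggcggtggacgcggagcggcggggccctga
Cdk1, chr10:69352863-69353162 on the minus strand: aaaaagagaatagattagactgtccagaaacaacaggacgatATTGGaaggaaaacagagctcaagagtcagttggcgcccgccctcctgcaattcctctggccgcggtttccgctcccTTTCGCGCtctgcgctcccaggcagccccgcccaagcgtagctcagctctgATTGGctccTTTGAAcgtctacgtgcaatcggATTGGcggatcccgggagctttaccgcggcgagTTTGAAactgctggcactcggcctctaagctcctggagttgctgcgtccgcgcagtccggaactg
Plk1, chr7:122159185-122159484 on the plus strand: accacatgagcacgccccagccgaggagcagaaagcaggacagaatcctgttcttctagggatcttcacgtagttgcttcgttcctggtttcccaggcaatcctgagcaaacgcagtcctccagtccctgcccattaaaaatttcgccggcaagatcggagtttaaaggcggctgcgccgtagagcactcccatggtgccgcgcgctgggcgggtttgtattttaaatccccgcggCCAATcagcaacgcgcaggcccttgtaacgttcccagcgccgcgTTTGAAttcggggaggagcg
Bub1, chr2:127831810-127832109 on the minus strand: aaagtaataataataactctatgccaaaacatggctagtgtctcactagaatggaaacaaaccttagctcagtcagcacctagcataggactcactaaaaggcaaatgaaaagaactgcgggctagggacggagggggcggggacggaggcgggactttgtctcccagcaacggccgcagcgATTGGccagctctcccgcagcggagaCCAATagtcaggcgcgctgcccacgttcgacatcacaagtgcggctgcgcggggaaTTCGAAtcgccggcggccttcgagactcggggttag
Top2a, chr11:99024140-99024439 on the minus strand: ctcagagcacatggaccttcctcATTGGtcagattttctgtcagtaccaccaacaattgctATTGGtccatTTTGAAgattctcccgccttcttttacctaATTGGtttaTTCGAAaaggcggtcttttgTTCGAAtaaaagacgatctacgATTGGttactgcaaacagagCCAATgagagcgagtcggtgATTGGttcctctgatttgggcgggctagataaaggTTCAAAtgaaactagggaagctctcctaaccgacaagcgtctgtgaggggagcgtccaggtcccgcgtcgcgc
In Ccnb2 (cyclin B2), 3 CCAAT boxes begin 87, 54 and 21 bases before the start, and a CHR begins 5 bases after it. Cdk1 has CHR matches 71 and 15 bases before its start and the only E2F match among the 5 genes. The CHR of Plk1 begins 31 bases after its start and that of Bub1 15 bases after. Top2a holds 4 CHR and 6 CCAAT matches. Not every member that rose had these motifs. The window of Mad2l1, called higher on all 3 days and in polyps, held no match, and no Cenpk window held a CHR.

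The CHR matches of the members lay close to the start. A CHR lying from 60 bases before the start to the end of the window was found in 67.4% of the members' windows and 5.9% of all windows. The S phase genes had such a match in 7.5% of 53 windows and a CHR anywhere in 20.8%, while E2F letters stood in 30.2% of them. A further list of 100 mitosis genes lay between (46.7% of 90 windows with a CHR, 13.3% with E2F letters). These are matches of letters, not sites shown to be bound, and no test was made of them.

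**Figure D1:**
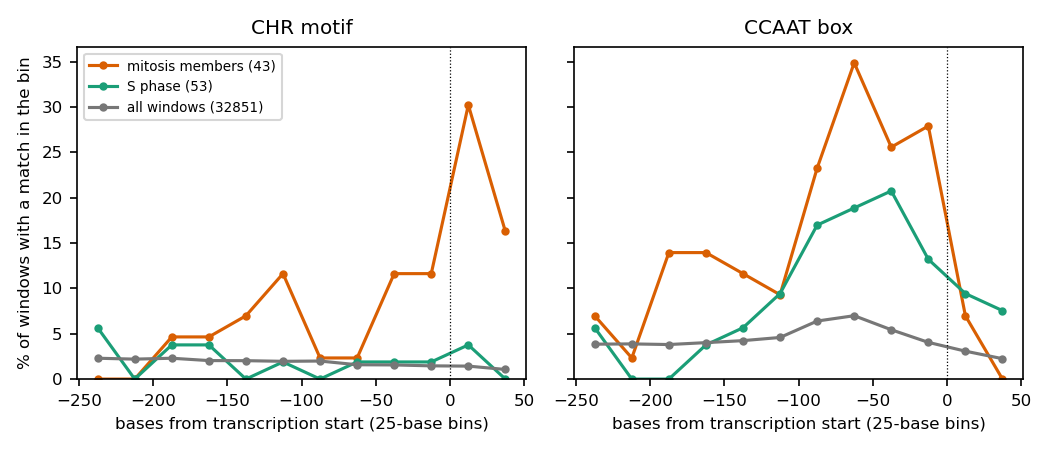
Share of promoter windows (vertical axis, percent) with a CHR match (left) or a CCAAT box (right) beginning in each 25-base bin of distance from the annotated start (horizontal axis), for the mitosis members, the S phase genes and all windows. The members' CHR share peaked just after the start, at 30.2% of windows in the bin from 0 to 25, and their CCAAT share between 75 and 50 bases before it.

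Values below are scaled linear signals, in which the geometric mean of every array is 100. Differences are in log2(signal + 16), which understates the change of dim genes, and are followed by ± SE with n = 3 arrays a group. A gene was called when limma's p-value, adjusted by Benjamini-Hochberg over all 35066 probe sets, was under 0.05. The brightest probe set stands for its gene unless another is named. In whole tissue, more cells in mitosis and more RNA per cell cannot be told apart. Before scaling, the arrays' geometric means ran from 69.1 to 178. Precision is limited by the 3 arrays in each group.

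At each of the 3 days, most measured mitosis genes were higher in Apc-deleted intestine. At day 3, 24 of the 46 members were called higher and 1 lower, where 10.8% of all genes were called higher and 7.35% lower. At day 4 the count was 28 higher and 1 lower (14.9% and 9.86% of all genes), and at day 5 it was 35 higher and 1 lower (20.5% and 12.9%). Over the mean of the 3 days, 40 members were higher and 1 lower (29.2% and 24.5%). The members' median difference was 0.87 at day 3, 0.84 at day 4 and 0.95 at day 5, beside medians over all genes of 0.0086, 0.026 and 0.021. In polyps, 13 members were higher and 1 lower than in normal colon (7.45% of all genes higher and 9.11% lower), with a median of 0.59 beside -0.017. The Apcfl/fl arrays lay above all wild-type arrays for 30 members at day 3 (18.0% of all genes), 39 at day 4 (31.4%) and 37 at day 5 (26.5%), and polyps lay above normal colon for 28 (18.4%).

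The calls of single members were set side by side for the days and polyps. Altogether 38 members were called higher on at least 1 day and 18 on all 3 days. Of the 13 higher in polyps, 12 were also higher on at least 1 day, and the other was Ube2c, the ubiquitin-conjugating enzyme of the anaphase-promoting complex. A set of 7 members was higher on all 3 days and in polyps, and these were Bub1, Mad2l1, Kif2c, Top2a, Smc2, Ncapd2 and Ncapg. Besides Ube2c, 7 members were called higher on no single day, and these were Birc5, Kif23, Spc25, Tpx2, Pttg1, Foxm1 and Hmmr.

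**Figure D2:**
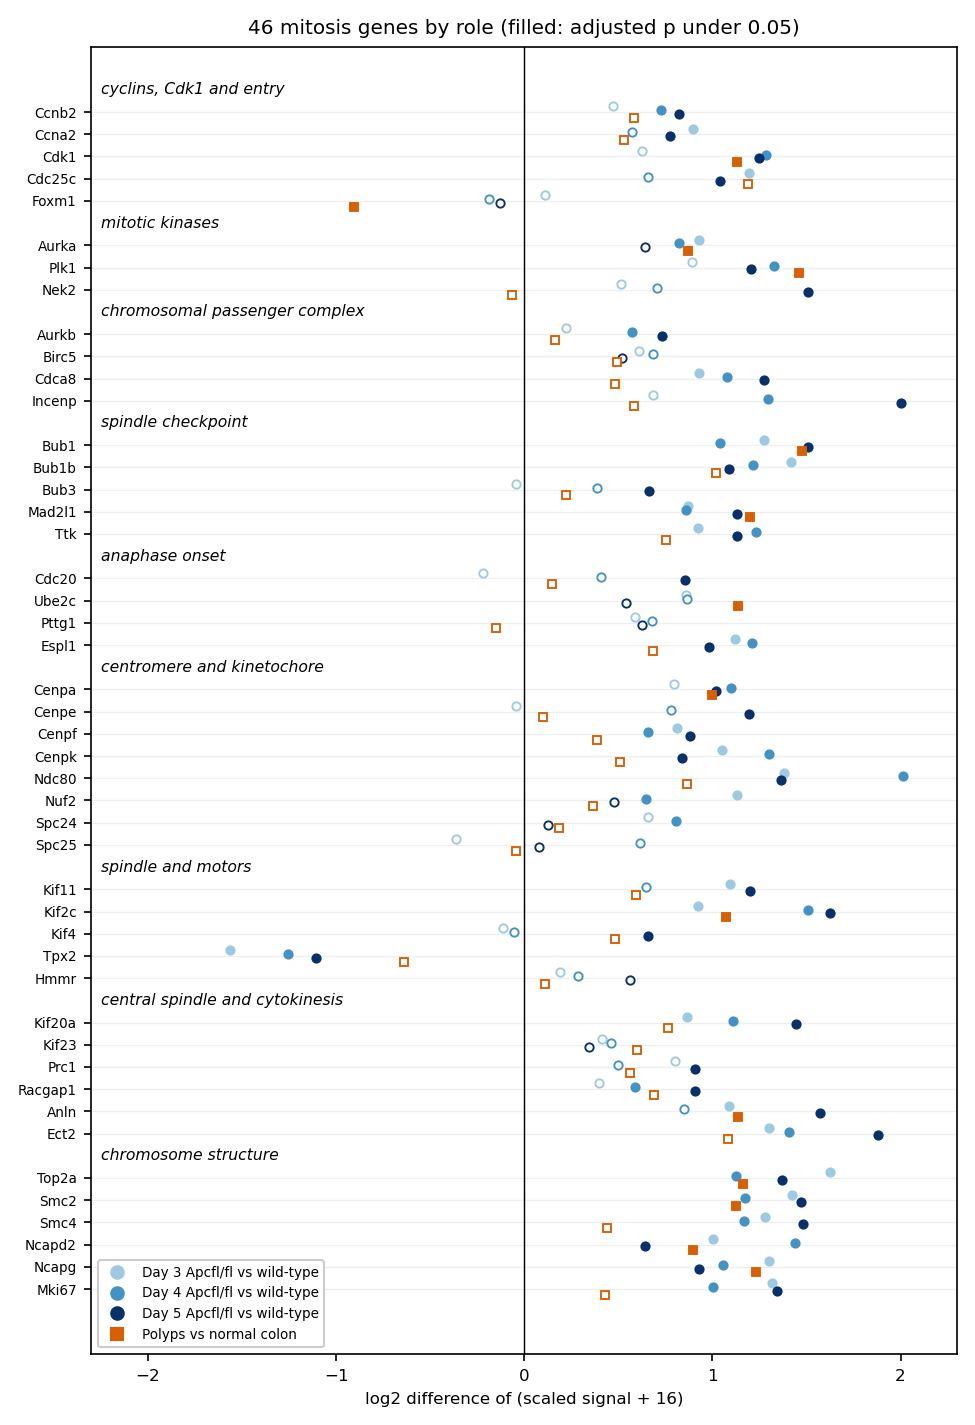
Log2 difference (horizontal axis) of each of the 46 measured members (rows, grouped by role) at day 3, 4 and 5 after Apc deletion (circles) and in polyps (squares), with filled points for adjusted p under 0.05. All 6 chromosome structure genes are filled on all days, the chromosomal passenger genes have no filled square, and Tpx2 and, in polyps, Foxm1 lie on the left.

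Cyclins, Cdk1 and their activators stood first in order of action. Of the 5 measured, 2 were called higher at day 3, 2 at day 4, 4 at day 5 and 1 in polyps. Cdk1, the kinase that drives entry into mitosis, measured 610.0, 602 and 854 on the day 3 wild-type arrays and 1045, 1290.1 and 872 in Apcfl/fl. At day 4 its signals were 543, 467 and 655 in wild-type and 1469, 1220.3 and 1409.5 in Apcfl/fl mice, and at day 5 453, 792 and 581 and 1245, 1682 and 1402. No Apcfl/fl array overlapped the wild-type arrays of its day. The difference was 0.62 ± 0.23, adjusted p = 0.0724 at day 3, 1.28 ± 0.23, adjusted p = 0.00137 at day 4 and 1.25 ± 0.23, adjusted p = 0.000781 at day 5. In normal colon Cdk1 measured 382, 332 and 216 and in polyps 668, 550.4 and 858, again without overlap (1.13 ± 0.27, adjusted p = 0.0222).

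Both other cyclins and Cdc25c were called higher on some days. Cyclin B2 (Ccnb2) rose by 0.73 at day 4 and 0.82 at day 5, and cyclin A2 (Ccna2), which acts in S phase and early mitosis, by 0.90 at day 3 and 0.78 at day 5. Cdc25c, the phosphatase that removes inhibitory phosphates from Cdk1, rose by 1.20 and 1.04 on the same days, and its polyp difference of 1.19 ± 0.36, adjusted p = 0.0550 was not called.

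Foxm1, a transcription factor of late cell cycle genes, was the member that fell in polyps, and its probe sets went opposite ways. Its brightest probe set, 1448833_at, read 394, 382 and 330.9 in normal colon and 166, 176 and 231 in polyps. All polyp arrays were lower (-0.90 ± 0.22, adjusted p = 0.0244). On the small intestinal arrays it read 221, 259 and 179.5 and 259.5, 263 and 192 at day 3 (wild-type, then Apcfl/fl), 193, 274 and 272 and 207, 216 and 212 at day 4, and 146, 202 and 301 and 199, 219 and 155 at day 5. The genotypes overlapped on all 3 days, with no call. Probe set 1448834_at of the same gene read 9.12, 39.8 and 8.05 in normal colon and 108, 90.9 and 125 in polyps, so that here all polyp arrays were higher (1.93 ± 0.33, adjusted p = 0.00385). It also rose at day 5, from 50.8, 132 and 90.7 to 258, 246 and 169 (1.22 ± 0.39, adjusted p = 0.0245). The probe sets 1417748_x_at (0.56 in polyps) and 1437138_at, which was dim (-0.015), were not called. The direction of Foxm1 in polyps therefore depends on the probe set.

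Of the 3 mitotic kinases, 1 was higher at day 3, 2 at day 4, 2 at day 5 and 2 in polyps. Plk1, which acts in centrosome maturation, mitotic entry and cytokinesis, had signals of 164, 299.5 and 351 in day 3 wild-type mice and 311, 793 and 487 in Apcfl/fl mice, which overlapped. At day 4 these were 333, 238 and 338 and 847, 811 and 682, and at day 5 214, 416 and 413 and 769, 747 and 857. The Apcfl/fl arrays were all higher on both days (1.33 ± 0.32, adjusted p = 0.00744 and 1.20 ± 0.32, adjusted p = 0.00869), whereas day 3 missed the threshold (0.89 ± 0.32, adjusted p = 0.0612). Polyps read 409, 338 and 556 and normal colon 189, 185 and 84.8, with no overlap and a difference of 1.46 ± 0.32, adjusted p = 0.0138. Aurora A (Aurka), a spindle pole kinase, rose by 0.93 at day 3, 0.82 at day 4 and 0.87 in polyps.

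Nek2, a kinase of centrosome separation, was the member with the clearest difference between tissues. In the small intestine it measured 225, 138 and 278 (wild-type) and 235, 445 and 259 (Apcfl/fl) at day 3, and 265, 239 and 351 and 475, 492 and 441 at day 4. By day 5 it read 181, 289 and 338 in wild-type and 831, 776 and 715 in Apcfl/fl mice. All day 5 Apcfl/fl arrays were more than 2 times the highest wild-type array (1.51 ± 0.28, adjusted p = 0.000655). In the colon it measured 175, 190.4 and 121 in normal mucosa and 180.4, 129 and 151 in polyps, and the groups overlapped (-0.064 ± 0.25, adjusted p = 0.890). A second probe set, 1417299_at, had the same pattern, with 0.75 at day 4, 1.39 at day 5 (both called) and -0.076 in polyps. The third, 1437579_at, was dimmer and went the other way, by -0.92, -0.87 and -0.81 at day 3, 4 and 5, past the threshold each time.

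The chromosomal passenger complex corrects faulty attachments and then guides cytokinesis. Of its 4 subunits, 1 was called higher at day 3, 3 at day 4, 3 at day 5 and 0 in polyps (at an unadjusted p under 0.05 0). The kinase subunit Aurora B (Aurkb) read 202, 258 and 229.8 in wild-type and 257, 314 and 242 in Apcfl/fl mice at day 3, 230.4, 179 and 245 and 362, 286 and 346 at day 4, and 203, 297 and 241 and 441, 403 and 408 at day 5. The day 3 groups overlapped, and the later ones did not (0.57 ± 0.20, adjusted p = 0.0454 and 0.73 ± 0.20, adjusted p = 0.00958). In polyps it read 157, 154 and 197, within reach of normal colon at 189, 150.4 and 114 (0.16 ± 0.24, adjusted p = 0.702). A second Aurkb probe set, 1451246_s_at, was higher in polyps by 0.97 ± 0.26, adjusted p = 0.0359. Incenp, the scaffold subunit, rose by 1.29 at day 4 and 2.00 at day 5, the latter being the largest day 5 increase of any member. Borealin (Cdca8) rose on each day, by 0.93, 1.08 and 1.27, and survivin (Birc5) was called on no single day (0.61, 0.68 and 0.52). Over the mean of the 3 days, all 4 subunits were called higher.

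Of 5 spindle checkpoint genes, 4 were higher at day 3, 4 at day 4, all 5 at day 5, and 2 in polyps. The checkpoint kinase Bub1 measured 94.7, 40.3 and 104 in wild-type and 187, 271 and 166 in Apcfl/fl mice at day 3. It measured 107, 135 and 176 and 339, 261 and 299.6 at day 4, and 119.7, 145 and 135 and 403, 354 and 478 at day 5. No day showed overlap, and the differences were 1.27 ± 0.27, adjusted p = 0.00418, 1.04 ± 0.27, adjusted p = 0.0111 and 1.51 ± 0.27, adjusted p = 0.000525. In the colon it read 76.9, 76.0 and 20.8 in normal mucosa and 189, 161 and 171 in polyps, the largest polyp difference among the members (1.48 ± 0.35, adjusted p = 0.0192), and normal colon replicate 3 was far below the other two. Mad2l1, the checkpoint protein that holds Cdc20 inactive, rose by 0.87, 0.86 and 1.13 on the 3 days and by 1.20 in polyps. Bub1b (BubR1) and the kinase Ttk (Mps1) rose on all 3 days by 0.92 to 1.42, and Bub3 only passed the threshold at day 5 (0.67).

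Of the 4 genes of anaphase onset, 1 was higher at day 3, 1 at day 4, 2 at day 5 and 1 in polyps. Cdc20, the activator of the anaphase-promoting complex, read 897, 1415 and 1103 in wild-type and 846, 1442 and 719 in Apcfl/fl mice at day 3, and 823, 844 and 1515 and 1342, 1384 and 1342 at day 4. The groups overlapped on both days. At day 5 it read 604, 865 and 1059 and 1438, 1405 and 1658, and all Apcfl/fl arrays were higher (0.85 ± 0.28, adjusted p = 0.0292). Polyps (571, 636 and 770.4) and normal colon (723, 717 and 391) overlapped (0.15 ± 0.28, adjusted p = 0.767). Separase (Espl1), the protease that cuts cohesin, was called on all 3 days (1.12, 1.21 and 0.98) while its inhibitor securin (Pttg1) was called on none, with differences from 0.59 to 0.68. Ube2c was called in polyps and on no single day (1.14 ± 0.28, adjusted p = 0.0239), though its day 3 and day 4 differences were 0.86 and 0.86.

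Centromere and kinetochore genes, 8 in number, gave 4 higher at day 3, 6 at day 4, 5 at day 5 and 1 in polyps. Ndc80, which binds microtubules at the kinetochore, had the largest day 4 difference of any member on this scale. Its signals were dim in wild-type mice, at 49.97, 26.4 and 14.9 on day 3, 7.01, 8.97 and 36.8 on day 4 and 32.0, 63.3 and 52.0 on day 5. In Apcfl/fl mice they were 93.1, 117 and 89.4, then 126, 128 and 81.5, then 156, 157 and 133. The groups were apart on every day (1.38 ± 0.31, adjusted p = 0.00612, 2.01 ± 0.31, adjusted p = 0.000487 and 1.37 ± 0.31, adjusted p = 0.00315), and replicate 3 of the day 4 wild-type group was far above the other two. At such low signals the size rests on the offset, since the day 4 difference was 2.93 with an offset of 1 and 1.11 with 64, where that of Kif2c was larger (1.29). Polyps (52.6, 32.4 and 109) overlapped normal colon (7.53, 52.8 and 26.2), with 0.87 ± 0.43, adjusted p = 0.210.

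Cenpa, the histone H3 variant that marks centromeres, was the kinetochore member that rose in polyps. It read 175, 175 and 124 in normal colon and 242, 347 and 418 in polyps, without overlap (1.00 ± 0.26, adjusted p = 0.0313). In the small intestine it read 315, 309 and 361 in wild-type and 503, 969.7 and 399 in Apcfl/fl mice at day 3, 421, 422 and 623 and 1153, 1013 and 981 at day 4, and 262, 469.7 and 521 and 775, 1002 and 736 at day 5. Every Apcfl/fl array was higher than its controls, but the call came at day 4 and day 5 (1.10 ± 0.29, adjusted p = 0.0131 and 1.02 ± 0.29, adjusted p = 0.0134) and not at day 3 (0.80 ± 0.29, adjusted p = 0.0666). A dimmer Cenpa probe set, 1441864_x_at, fell on these days (by 1.57 and 1.33). Nuf2, the partner of Ndc80, rose at day 3 and day 4 (1.13 and 0.65), and Spc24 at day 4 (0.81), whereas Spc25 was called on no day (-0.36, 0.62 and 0.080). Among the others, Cenpf and Cenpk were called on all 3 days, and the motor Cenpe at day 5 (1.19).

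Spindle motors and spindle proteins were the role with the lowest median at day 4, 0.28 over 5 genes. Tpx2 enters it by its brightest probe set, which fell while 2 others rose, so the median depends in part on that choice. In polyps this role's median was 0.48, and the lowest was that of the centromere and kinetochore genes (0.38). Kif11, the motor that pushes spindle poles apart, read 180.5, 78.4 and 193 in wild-type and 354, 363 and 253 in Apcfl/fl mice at day 3, 228, 233 and 288 and 393, 428 and 375 at day 4, and 235, 207 and 175 and 533, 488 and 456 at day 5. The groups were apart on each day, with calls at day 3 and day 5 (1.09 ± 0.25, adjusted p = 0.00737 and 1.20 ± 0.25, adjusted p = 0.00192) and a difference of 0.65 ± 0.25, adjusted p = 0.0757 at day 4. Polyps (192, 248 and 194) were likewise all above normal colon (115, 153 and 135), and 0.60 ± 0.22, adjusted p = 0.105 was not called. Kif2c, a microtubule-depolymerising kinesin at centromeres, was higher on every day and in polyps (0.92, 1.51, 1.63 and 1.07). Kif4, a chromosome-bound motor, rose at day 5 (0.66), and Hmmr, a spindle-binding protein, was not called (0.19, 0.28 and 0.56).

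Tpx2, the spindle protein that activates Aurora A, was the member called lower on all 3 days, and its probe sets split in pairs. By the brightest, 1447518_at, it read 548, 1092 and 665 in wild-type and 182, 278 and 268 in Apcfl/fl mice at day 3, 224, 276 and 349.7 and 107, 104 and 111 at day 4, and 309, 183 and 273 and 138, 101 and 87.6 at day 5. Every Apcfl/fl array was lower (-1.56 ± 0.27, adjusted p = 0.00112, -1.26 ± 0.27, adjusted p = 0.00363 and -1.11 ± 0.27, adjusted p = 0.00463), and polyps (159, 225 and 156) were lower than normal colon (249, 248 and 375) without a call (-0.64 ± 0.25, adjusted p = 0.124). Probe set 1447519_x_at, annotated to the same transcript record, gave -1.68, -1.28 and -1.18. The other pair rose. Probe set 1428104_at read 93.8, 89.1 and 147 in wild-type and 216, 304 and 186 in Apcfl/fl mice at day 3, 162, 137 and 211 and 267, 308 and 244 at day 4, and 144, 165 and 202 and 335, 255 and 316 at day 5. All its Apcfl/fl arrays were higher than their controls (1.00 ± 0.23, adjusted p = 0.00768, 0.65 ± 0.23, adjusted p = 0.0542 and 0.77 ± 0.23, adjusted p = 0.0182). Probe set 1428105_at was called at day 3 and day 5 as well (0.77 and 0.70). These data thus give no single direction for Tpx2.

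**Figure D3:**
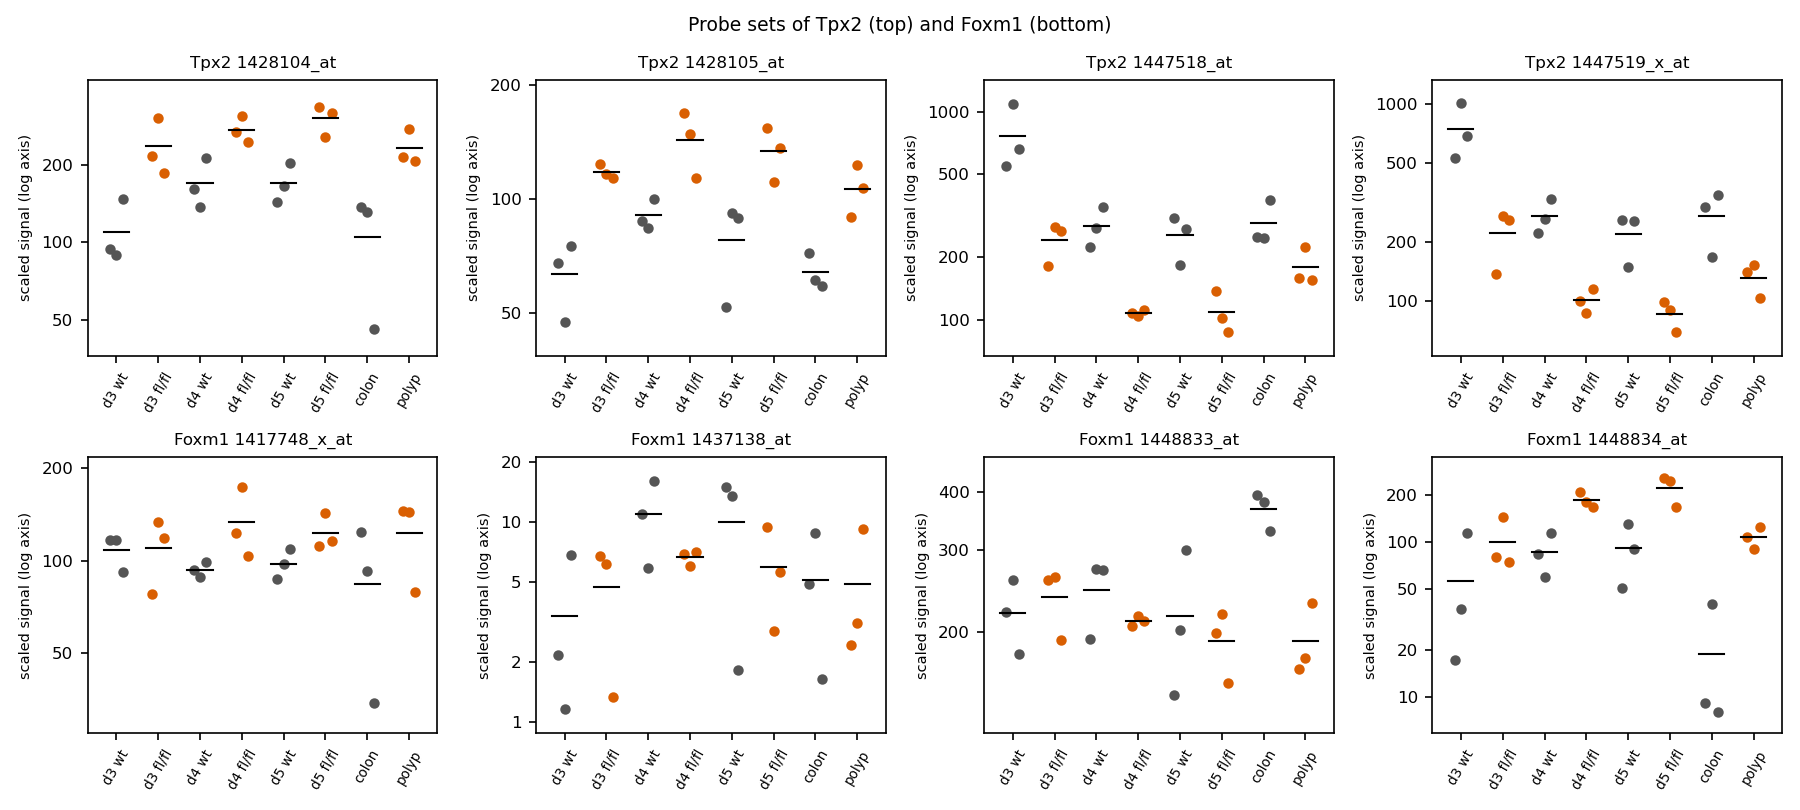
Scaled signal (vertical log axes) on each of the 24 arrays for the 4 probe sets of Tpx2 (top) and the 4 of Foxm1 (bottom), by group, with bars at the group means, orange for Apcfl/fl and polyps and grey for wild-type and normal colon. The left pair of Tpx2 panels is higher in Apcfl/fl and the right pair lower, and Foxm1 1448833_at and 1448834_at go opposite ways in polyps.

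The central spindle and cytokinesis genes gave 3 of 6 higher at day 3, 3 at day 4, 5 at day 5 and 1 in polyps. Ect2, which activates RhoA at the cleavage site, rose on all days (1.30, 1.41 and 1.88), and its difference in polyps was 1.08 ± 0.34, adjusted p = 0.0626. Kif20a, a motor of the central spindle, rose on all days too (0.86, 1.11 and 1.44). Anillin (Anln), a scaffold of the contractile ring, was called at day 3, at day 5 and in polyps (1.09, 1.57 and 1.14), Racgap1 at day 4 and day 5 and the microtubule bundler Prc1 at day 5. Kif23, the motor partner of Racgap1, was called on no single day by its brightest probe set (0.41, 0.46 and 0.35). Its probe set 1453748_a_at rose on all 3 days (1.32, 1.05 and 0.96) and in polyps (1.07). Over the mean of the 3 days, all 6 genes of this role were called higher by their brightest probe sets.

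Chromosome structure genes were the role in which every member was called higher on every day (6 of 6), and 4 of the 6 were higher in polyps. Topoisomerase II alpha (Top2a), which untangles sister chromatids, read 592, 398 and 809 in wild-type and 1678, 2128 and 1659.6 in Apcfl/fl mice at day 3, the largest day 3 difference of any member (1.62 ± 0.25, adjusted p = 0.000640). Its signals were 852, 822 and 1316 and 2317, 1989 and 2132 at day 4, and 796, 1155 and 893 and 2745, 1985 and 2696 at day 5. The genotypes were apart on all days (1.12 ± 0.25, adjusted p = 0.00531 and 1.37 ± 0.25, adjusted p = 0.000742). Polyps read 1089, 982 and 1226 and normal colon 702, 599.8 and 259, also apart (1.17 ± 0.34, adjusted p = 0.0472).

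The condensin core subunit Smc2 read 402, 214 and 271 in wild-type and 713, 1128 and 622 in Apcfl/fl mice at day 3. At day 4 it read 361, 442 and 759.8 and 1163, 1054 and 1205, and at day 5 398, 687 and 562 and 1768, 1287 and 1518. All Apcfl/fl arrays were higher (1.42 ± 0.29, adjusted p = 0.00369, 1.17 ± 0.29, adjusted p = 0.00944 and 1.47 ± 0.29, adjusted p = 0.00130), as were polyps at 648, 553 and 585 against 336, 322 and 168 (1.12 ± 0.28, adjusted p = 0.0249). Its partner Smc4 rose by 1.28, 1.17 and 1.48, but by 0.44 ± 0.28, adjusted p = 0.326 in polyps, which was not called. The condensin I subunits Ncapd2 and Ncapg were called throughout, by 0.89 and 1.23 in polyps.

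Mki67, which encodes the proliferation marker Ki-67 that coats mitotic chromosomes, was called on every day and not in polyps. It read 707, 315 and 623 in wild-type and 1249, 1441 and 1264 in Apcfl/fl mice at day 3, 667, 765 and 1017 and 1666, 1508 and 1716 at day 4, and 673, 897 and 698 and 1940.2, 1655 and 2223 at day 5. The small intestinal groups never overlapped (1.32 ± 0.25, adjusted p = 0.00247, 1.00 ± 0.25, adjusted p = 0.0101 and 1.34 ± 0.25, adjusted p = 0.000854). Polyps read 728, 682 and 947 and normal colon 735, 725 and 354 with overlap, and the difference was 0.43 ± 0.31, adjusted p = 0.392. The test of polyp effect against Apc effect gave -0.79 ± 0.32, adjusted p = 0.0950, which missed the threshold.

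**Figure D4:**
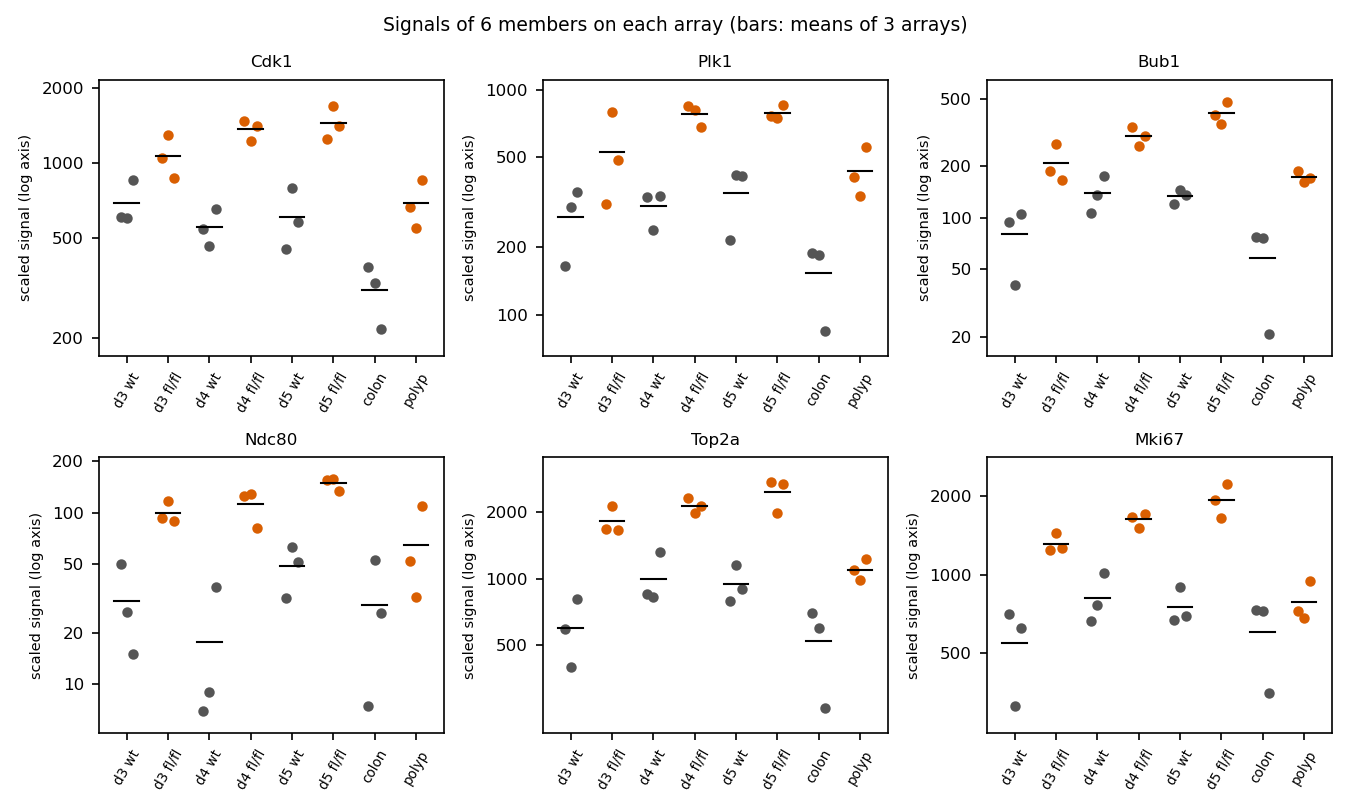
Scaled signal (vertical log axes) of 6 members on each of the 24 arrays, by group (day and genotype, normal colon, polyps), with bars at the means of 3 arrays, orange for Apcfl/fl and polyps and grey for wild-type and normal colon. Points of the 2 genotypes are apart on every day for Cdk1, Bub1, Ndc80, Top2a and Mki67, Plk1 overlaps at day 3, and Ndc80 and Mki67 overlap in the colon.

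Mitosis genes were next set beside S phase genes, of which 54 of 56 were measured. At day 3 the medians were close, 0.87 for the mitosis members and 0.87 for the S phase genes, with 36 of the 54 S phase genes called higher and 1 lower. At day 4 the S phase median was 1.16 against 0.84, and 44 of 54 S phase genes were higher. Day 5 gave 1.08 against 0.95, with 42 higher. The mitosis median less the S phase median at day 4 was -0.33, and it ran from -0.38 to -0.19 over all alternative processings and omitted arrays. On the other days its sign was not stable. It was -0.0054 at day 3, from -0.17 without day 3 wild-type replicate 2 to 0.093 without replicate 1, and -0.13 at day 5, from -0.20 without day 5 Apcfl/fl replicate 1 to 0.041 without day 5 wild-type replicate 3. In polyps the medians were 0.55 and 0.59, and 10 of 54 S phase genes were called higher. Without normal colon replicate 3 the S phase median in polyps was 0.31 with 5 called, and without normal colon replicate 1 it was 0.77 with 17 called, above the mitosis median of 0.68. Leaving out any other colonic array left 5 or 6 S phase genes called, and array weights gave 30, where 18.3% of all genes were higher. The difference between the lists was not tested.

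The S phase list held the largest single changes. Pole, the catalytic subunit of DNA polymerase epsilon, rose by 2.92, 3.86 and 3.46 on the 3 days and by 3.28 in polyps, above every mitosis member. At day 4 it was followed by Timeless (1.89), Gins2 (1.83) and Uhrf1 (1.70). The replication clamp Pcna rose by 1.10, 0.99 and 0.94, while the helicase subunit Mcm2 had 0.050, 0.28 and 0.43 and was not called. The smallest day 4 differences were those of Orc1 (0.10) and Gins4 (0.27), and neither was called. In polyps, Ccne1 (1.64), Mcm3 (1.38) and Rrm1 (1.29) came after Pole, and Fen1 (-1.06) and Tyms (-0.30) were smallest, without a call.

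**Figure D5:**
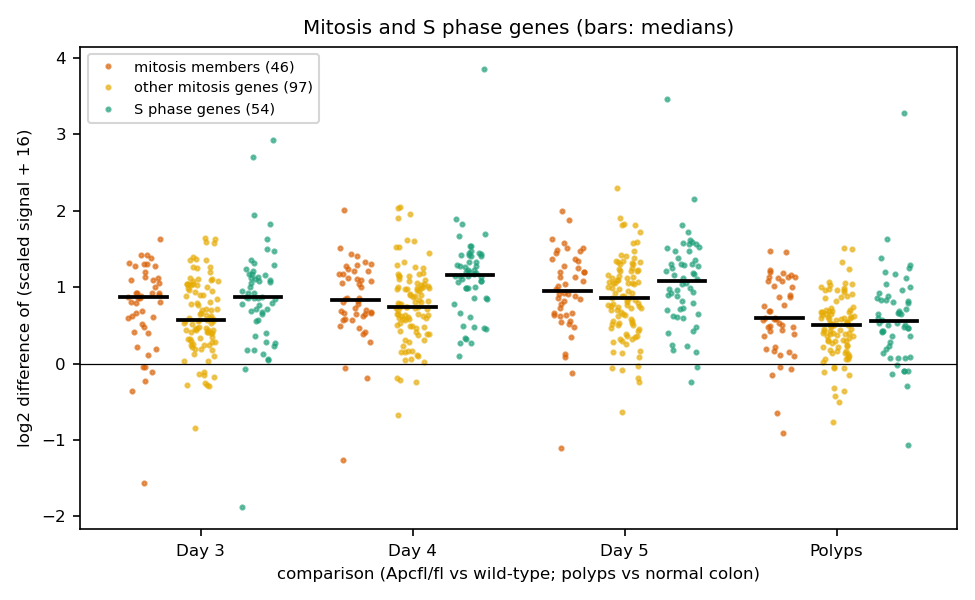
Log2 differences (vertical axis) of the 46 mitosis members, 97 other mitosis genes and 54 S phase genes, one point a gene, at day 3, 4 and 5 and in polyps, with bars at the medians. The S phase median lies above the mitosis median at day 4, the polyp medians are lower than those of the small intestine, and the highest S phase point in each comparison is Pole.

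Other genes of the same processes, 97 of a list of 100 that holds no member, moved the same way by their counts on the 3 days and less clearly in polyps. They gave 37 higher and 1 lower at day 3 (10.8% and 7.35% of all genes) and 52 and 0 at day 4 (14.9% and 9.86%). At day 5 the counts were 62 and 1 (20.5% and 12.9%), and in polyps 12 and 0 (7.45% and 9.11%). The medians were 0.57, 0.75, 0.86 and 0.50 in the same order. The largest at day 4 were the centromere genes Cenpp (2.05) and Cenpi (1.95), the checkpoint gene Mad1l1 (2.03) and Gtse1 (1.90). The smallest there were Kif15 (-0.67) and Depdc1b (-0.25), not called. In polyps the kinetochore genes Zwilch (1.51) and Ska1 (1.50), with Mad1l1 (1.32, not called) and Cks1b (1.24), led. Cit (-0.77) and Anapc13 (-0.50) were at the other end, not called.

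Inhibitors of the cell cycle were not raised as a list, with medians of 0.12, 0.14 and -0.14 at day 3, 4 and 5 and -0.32 in polyps. Of 15 measured, 0 were higher and 1 lower at day 3 (10.8% and 7.35% of all genes). The counts were 0 and 3 at day 4 (14.9% and 9.86%), 2 and 3 at day 5 (20.5% and 12.9%), and 2 and 4 in polyps (7.45% and 9.11%). Counts this small, several near the share of all genes, give the list no direction. Cdkn2b, an inhibitor of Cdk4 and Cdk6, fell on all days (-1.14, -1.80 and -2.20) and in polyps (-0.92). In polyps Cdkn1b also fell (-1.18), while Cdkn1c (2.31) and Cdkn2a (1.28) rose. The genes named here were chosen after their values were seen.

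Whether the polyp effect differed in size from the Apc effect was tested over all 24 arrays, as polyps minus normal colon less the mean of the 3 day differences. Of the 46 members, 0 had a larger and 2 a smaller effect in polyps, where 7.06% and 10.9% of all genes did. These were Nek2 (-0.97 ± 0.31, adjusted p = 0.0351) and Foxm1 by its brightest probe set (-0.83 ± 0.27, adjusted p = 0.0354). For Foxm1, probe set 1448834_at gave 0.89 ± 0.45, adjusted p = 0.186. The members' median was -0.22 (all genes -0.097), and it turned to 0.062 with quantile normalization and to 0.071 on the authors' standardized values. In the S phase list, 1 gene (Ccne1, 1.08) had a larger and 9 a smaller effect in polyps, with a median of -0.42. That median was -0.17 with quantile normalization, -0.15 on the standardized values, -0.22 without normal colon replicate 1 and -0.64 without replicate 3. The members' median was -0.079, -0.093 and -0.46 without normal colon replicate 1, 2 and 3. Among the other mitosis genes 0 were larger and 6 smaller.

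The size of the Apc effect was also compared between days. Between day 5 and day 3, 0 of 46 members differed (0.609% of all genes higher and 0.181% lower), with 6 higher and 1 lower at an unadjusted p under 0.05. The levels themselves moved within genotypes. In Apcfl/fl mice 9 members were higher at day 5 than at day 3 (8.13% of all genes), namely Nek2 (1.32), Ect2, Incenp, Anln, Bub1, Kif2c, Smc2, Aurkb and Racgap1, and Tpx2 was lower (-1.05, with 6.76% of all genes lower). In wild-type mice Nuf2 was higher at day 5 than at day 3 (0.86 ± 0.21, adjusted p = 0.0286) and Tpx2 lower (-1.50 ± 0.27, adjusted p = 0.00749), where 0.869% of all genes were higher and 2.07% lower. The Nuf2 call rested on single arrays, since 0 members were called higher without day 3 wild-type replicate 2 or without any 1 of the 3 day 5 wild-type arrays, and 0 with array weights. The median member was 0.35 higher in wild-type mice at day 5 than at day 3, 0.16 without day 3 wild-type replicate 2 and 0.21 without day 5 wild-type replicate 2.

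Within a group, members tended to be high or low on the same array. Day 3 Apcfl/fl replicate 2 was the highest of its group for 43 of 46 members, against 37.9% of all genes. Day 4 wild-type replicate 3 was highest for 42 of 46 (34.7% of all genes), day 5 wild-type replicate 1 lowest for 38 (45.5%) and normal colon replicate 3 lowest for 41 (38.4%). The mean log2 level of the members in normal colon was 7.91, 7.91 and 7.26, and in polyps it was 8.28, 8.20 and 8.43. At day 3 it was 8.15, 7.88 and 8.27 in wild-type and 8.66, 9.15 and 8.68 in Apcfl/fl mice, and at day 4 8.17, 8.20 and 8.62 and 9.22, 9.10 and 9.18. The S phase mean level was highest or lowest in its group on the same 4 arrays, with 8.55, 9.03 and 8.68 in day 3 Apcfl/fl and 8.03, 7.66 and 7.20 in normal colon. The lowest array differed between the lists in the wild-type groups of day 3 and day 4 and in day 5 Apcfl/fl mice.

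Counts of calls rested on single arrays in places. Without day 3 Apcfl/fl replicate 2, 14 members were higher at day 3 (6.31% of all genes, against 10.8% with all arrays). Without day 4 wild-type replicate 1 or replicate 2, 18 were higher at day 4 (11.1% and 8.65% of all genes, against 14.9%). Without day 5 wild-type replicate 1, 22 were higher at day 5 (13.9% of all genes, against 20.5%). The polyp count of 13 was 2 without normal colon replicate 3 or without polyp replicate 1, 4 without polyp replicate 2, 5 without polyp replicate 3 and 8 without normal colon replicate 2. The members' median in polyps was 0.45 without normal colon replicate 3 and 0.65 without polyp replicate 1. Quantile normalization gave 24, 17 and 23 members higher at day 3, 4 and 5 and 14 in polyps (9.83%, 9.96%, 13.4% and 10.2% of all genes). With 2 arrays left in a colonic group, 4.04% to 6.52% of all genes were called higher in polyps.

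Some members have several probe sets, and these agreed in part. Beside the brightest, 31 of the genes have 55 further probe sets, of which 11 had the opposite sign at day 4 and 15 in polyps. Over all 101 probe sets, 39 were higher and 3 lower at day 3, 47 and 4 at day 4, 61 and 4 at day 5, and 21 and 1 in polyps. Of all probe sets, 9.79%, 12.5%, 17.9% and 7.15% were higher and 7.33%, 8.73%, 11.6% and 7.40% lower in the same order.

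Other features of the samples moved with the groups, and their part in the mitosis results was not tested. The spread of the arrays (SD of log2 signal) ran at day 4 from 2.00 to 2.18 on wild-type and from 2.26 to 2.34 on Apcfl/fl arrays, and at day 5 from 1.96 to 2.10 and from 2.22 to 2.38. The ratio of the 3' to the 5' probe set of Gapdh, a sign of RNA quality, ran at day 4 from 0.745 to 0.763 on wild-type and from 0.797 to 0.827 on Apcfl/fl arrays, and at day 5 from 0.776 to 0.803 and from 0.831 to 0.963. It overlapped at day 3, and in the colon it was lower in polyps (0.771 to 0.796) than in normal mucosa (0.806 to 1.152). The same ratio for Actb overlapped on every day and in the colon. At day 4 it ran from 1.157 to 1.172 on wild-type and from 1.135 to 1.213 on Apcfl/fl arrays. In polyps it ran from 1.046 to 1.149 and in normal colon from 1.043 to 1.269. Of 7 housekeeping genes measured, 2 were higher at day 3, 2 at day 4 and 4 at day 5, with 0 lower and medians of 0.23, 0.20 and 0.62. In polyps 1 was higher and 1 lower, with a median of -0.34. Stem cell markers were higher in 15 of 15 genes on every day (their summed day 4 signal ran over 7286 to 8129 for wild-type arrays and over 21369 to 23436 for Apcfl/fl arrays). Enterocyte markers were lower in 5 of 17 at day 4 and 12 of 17 at day 5 (a summed signal of 62340.2 to 76122 on wild-type arrays and of 22667 to 55719.5 on Apcfl/fl arrays that day). Also at day 5, 5 of 5 Paneth cell markers were higher, and 5 of 8 goblet cell, 7 of 10 T cell and 5 of 9 B and plasma cell markers lower. Of 10 epithelial genes, 4 were higher and 0 lower at day 5 (median 0.55), and 0 were higher and 4 lower in polyps (median -0.74). Also in polyps, 10 of 15 stem cell markers were higher and 1 lower, and 3 of 5 Paneth cell markers higher and 1 lower. Of 8 goblet cell markers, 7 were lower in polyps. There, 8 of 8 smooth muscle markers (summed 1887 to 4109 against 12178 to 17177 in normal colon), 9 of 10 colonocyte markers (2362 to 4247 against 24628 to 35302) and 8 of 9 B and plasma cell markers (4221 to 4487 against 8691 to 11408) were lower. Of 12 myeloid markers 6 were higher (10666 to 17007 against 4956 to 6161). Of all genes, 10.8%, 14.9%, 20.5% and 7.45% were higher at day 3, 4 and 5 and in polyps, and 7.35%, 9.86%, 12.9% and 9.11% lower. Enterocyte genes were bright in small intestine and colonocyte genes in normal colon. Smooth muscle markers were brighter in normal colon, labelled as mucosa, than on any small intestinal array (a summed signal of at most 9089.5). Their mean log2 level in normal colon was 9.67, 10.03 and 10.52, highest on replicate 3.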

How the data were processed

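The 24 arrays were grouped by the sample labels, and the members and lists were chosen with earlier results of these data known. Both of the 2 deposited tables hold a standardized score, with identical values in 842640 of 842640 cells. Judged by its values, the authors took natural logs of each array's signals, subtracted their mean and divided by their SD. The sources used here do not name the summarising software. Since the test was planned for log2 or linear values, the linear signal was recovered from its steps of 0.1 (100% whole within a tolerance of 0.1 of a step, for signals under 500) and scaled to a geometric mean of 100.

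Of 35110 probe sets listed, 44 controls were left out. Of the rest, 28153 carry 1 symbol, 769 several and 6144 none, and 28030 matched RefSeq's gene table (GRCm38.p6), with 0 symbols updated. A probe set with several symbols names no gene here. Linear models with moderated, two-sided tests (limma 3.58.1, R 4.3.3) were fitted to log2(signal + 16) over 35066 probe sets, with the 18 small intestinal arrays fitted together and the 6 colonic arrays alone. The script was tested on simulated data. Every array is given for 1 or more genes of each role, for the extreme members at day 4 and in polyps, and for members called lower or differing between tissues. From the S phase and other mitosis lists, up to 4 of the largest and 2 of the smallest at day 4 and in polyps are named, with Pcna and Mcm2. Where nothing says that samples are separate animals, p-values measure only the spread between these samples. Alternatives were quantile normalization, median centring, the authors' standardized values, offsets of 1 and 64, a filter on dim probe sets, other sets of arrays, other variance models, the mean of a gene's probe sets and leaving out each array. Leaving out probe sets with _x or _s identifiers was chosen after seeing the data.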

Additional observations from a re-analysis of the deposited data

Results flagged for a closer look

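For 2 of the 46 members the polyp effect differed from the Apc effect past the threshold, and both were smaller in polyps. Of all genes, 7.06% had a larger and 10.9% a smaller effect in polyps. Nek2 was -0.97 on the log2 scale (polyps against normal colon, less the mean of the 3 day differences; adjusted p = 0.0351 by limma), and its second probe set gave -0.89. The dimmer Nek2 probe set 1437579_at went the other way in the small intestine, called lower on all 3 days. Foxm1 was -0.83 (adjusted p = 0.0354) by its brightest probe set, and 1448834_at, which was not called, gave 0.89.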

How the results depend on the processing

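The counts of members called higher moved with the processing. The share of all genes called higher moved with them and is given in brackets. Quantile normalization gave 17 at day 4 (9.96%, against 14.9%) and 23 at day 5 (13.4%, against 20.5%), and the authors' standardized values 13 at day 4 (9.43%) and 5 in polyps (6.39%, against 7.45%). An offset of 1 gave 2 in polyps (5.04%), array weights 15 at day 3 (5.77%, against 10.8%) and 22 in polyps (18.3%), and the arrays of day 3 alone 9 at day 3 (3.44%). The number of members whose polyp effect differed was 1 with quantile normalization, an offset of 1 or the mean of all probe sets, 0 on the standardized values and 4 with array weights. The number that differed between day 5 and day 3 in wild-type mice was 1 with array weights or the mean of all probe sets. With that mean, Foxm1 turned to 0.39 in polyps (adjusted p = 0.253 by limma) and to 0.12 for polyps against the Apc effect. The cause of these shifts was not tested. Omitting 1 array gave 14 to 29 members higher at day 3, 18 to 27 at day 4, 22 to 32 at day 5, 39 to 42 over the mean of days and 2 to 14 in polyps, 0 to 0 for day 5 against day 3 effects, 1 to 3 in wild-type mice and 0 to 6 for polyps against the Apc effect. With 1 array omitted, 6% to 12.2% of all genes were higher at day 3, 8.42% to 11.1% at day 4 and 13.9% to 19.2% at day 5. Over the mean of days it was 27.3% to 29.9%, and in polyps 4.04% to 6.52%. The group left with 2 arrays was assumed to vary like the others. Median centring, an offset of 64, the filter on dim probe sets and trended and robust variances kept each of these counts within 1.5 times. The omission of _x and _s probe sets did so for the counts of members higher on each day, over the mean of days and in polyps, the comparisons it was run for. No paired analysis was possible because only the day 4 Apcfl/fl labels carry replicate numbers and the colonic labels give different animals for polyps and normal colon. Dim probe sets such as those of Ndc80 limit how well a fold can be read.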
